A study of Mus musculus with 12 samples.

Results

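The genotype dependence of the response to MJ041 was measured as a difference between 2 differences in RNA level. The MJ041-minus-vehicle difference of Hnf4a knockout (KO) hepatocytes was set against that of wild-type (WT) hepatocytes, for every expressed gene. All 12 libraries of the series entered it, 3 in each of 4 groups. The groups were WT with DMSO vehicle, WT with MJ041, KO with vehicle and KO with MJ041. Of 55414 annotated genes 14919 were expressed enough to be tested. The cells were primary hepatocytes from mouse liver, and their total RNA was made into stranded libraries and sequenced. MJ041 is a compound known here by its code name. Its dose and time, the age and strain of the mice, the way Hnf4a was deleted and whether replicates came from separate animals are not given in the labels. The p-values therefore measure the spread between these samples, which may be technical.

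HNF4A is a nuclear receptor that binds DNA as a dimer and keeps the genes of mature hepatocytes active, among them those of apolipoproteins, clotting factors and sugar and bile acid metabolism. Hepatocytes take up fructose and glucose, and the sugar-sensing factor ChREBP (encoded by Mlxipl) then activates enzymes that turn the carbon into fat. They also respond to interferons through ISGF3 and IRF factors, and to inflammatory cytokines through NF-kB, with separate sets of induced genes. The comparison asks whether the response to MJ041 differs between cells with and without intact Hnf4a.

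An interaction log2 fold change is the log2 fold change of MJ041 against vehicle in KO minus that in WT. A value below 0 means that the MJ041 difference was lower in KO than in WT. Levels are CPM, counts scaled to the library total and normalised between libraries, and the value after ± is the standard error (SE) of the fit, with n = 3 libraries in each group. Libraries held between 16740761 and 17902832 counts each. Genes near the filter on low counts were Rnf32 (0.510 CPM) and Muc1 (0.485 CPM), left out, and Eldr (0.264 CPM) and Gucy1b2 (0.285 CPM), kept.

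Hnf4a (ENSMUSG00000017950) was measured first as a check of the labels. Its level was 121, 137 and 112 CPM in the WT vehicle libraries and 166, 178 and 142 CPM in those with MJ041. In KO cells it was 61.1, 67.8 and 66.4 CPM with vehicle and 59.9, 76.0 and 66.7 CPM with MJ041. Each of the 6 KO libraries lay below each of the 6 WT libraries, and reads of the gene were still present in KO cells. Which exons were removed is not stated, so the transcript left in KO cells does not show how much working protein remained. The WT difference with MJ041 was 0.39 ± 0.10 and the KO difference 0.05 ± 0.10. The interaction was -0.34 ± 0.15 (95% interval -0.65 to -0.02), which did not pass (adjusted p = 0.334, edgeR). It was -0.21 with a covariate for the marker levels given next, and -0.15 without WT replicates 1 and 2 with MJ041, which leaves 1 library in that group.

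WT libraries with MJ041 were unequal in the levels of markers of other liver cells. Summed levels of 23 stellate cell markers, which belong to the fat-storing cells around the sinusoids, were 124, 133 and 215 CPM in WT with MJ041 and 232, 208 and 262 CPM in WT with vehicle. In KO cells they were 221, 255 and 237 CPM with MJ041 and 197, 275 and 247 CPM with vehicle. Kupffer cell markers summed to 211, 275 and 501 CPM in WT with MJ041, and to between 312 and 679 CPM with vehicle. Endothelial markers summed to 204, 222 and 383 CPM in WT with MJ041, and to between 327 and 526 CPM with vehicle. WT replicates 1 and 2 with MJ041 were thus low in all 3 lists, and replicate 3 lay within the vehicle range of each. KO sums were 537, 598 and 536 CPM with vehicle and 553, 589 and 579.9 CPM with MJ041 for Kupffer cells, and from 299 to 461 CPM for endothelial cells. The median interaction was 0.81 over 22 tested Kupffer markers, 0.70 over 23 endothelial and 0.68 over 17 stellate ones. At an unadjusted p below 0.05, 0, 4 and 7 were above 0 and 0, 0 and 2 below. All tested genes had 5.68% above and 7.59% below. Stellate members ranged from -1.29 to 2.39. With a covariate for these marker levels the median interaction was -0.14, 0.01 and 0.28, and without WT replicates 1 and 2 with MJ041 -0.07, 0.07 and 0.25. The covariate was the mean of these 3 lists, and those 2 libraries were the ones low in them. Medians nearer 0 for these markers therefore follow from the choice of setting. Hepatocyte markers summed to 57592, 63171 and 57747 CPM in WT with vehicle and 76035, 66469 and 58880.0 CPM with MJ041. By this sum replicates 1 and 2 with MJ041 lay above all 3 vehicle libraries. As a mean log2 CPM over the 14 markers, WT libraries had 8.88, 9.12 and 9.07 with vehicle and 9.42, 9.05 and 9.07 with MJ041. By that mean only replicate 1 with MJ041 lay above all 3. In KO the hepatocyte markers summed to between 27062 and 31663 CPM. The part of these marker levels in the differences was not tested. Lymphocyte and neutrophil markers summed to 5.80 CPM or less in every library. In bulk RNA, fewer cells of a type and less RNA per cell cannot be told apart.

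No gene passed the test of genotype dependence in edgeR, and the genes that changed with MJ041 in WT cells had median values close to 0 in KO cells. In edgeR's quasi-likelihood fit 0 of 14919 genes had an interaction with an adjusted p below 0.05, and the smallest adjusted p was 0.119. An unadjusted p below 0.05 was found for 1980 genes, 848 above 0 (5.68%) and 1132 below 0 (7.59%), where uniform p-values would give 746. With library totals as the only scaling the same split was 1204 above and 775 below. DESeq2 called 227 of 13212 genes, 79 above 0 (0.598%) and 148 below 0 (1.12%), and limma voom called 0. The count of calls rested on single libraries: it was 852 without WT replicate 3 with MJ041, 7 without WT replicate 2 with vehicle, and 0 when any of the other 10 libraries was left out. Without a filter on low counts 886 of 30185 genes were called.

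**Figure D1:**
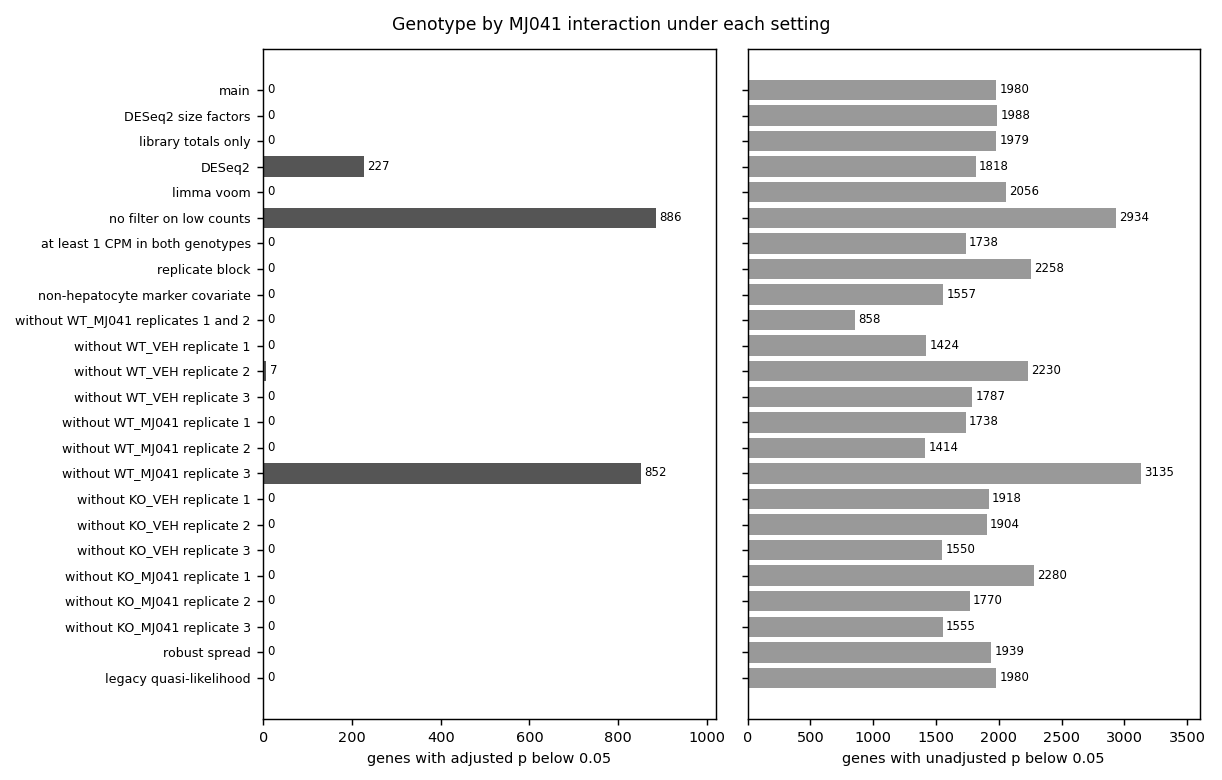
Number of genes with a genotype by MJ041 interaction under each setting, with the adjusted p below 0.05 on the left and the unadjusted p below 0.05 on the right (bars start at 0, the number is printed beside each). DESeq2 (227), no filter (886) and leaving out WT_MJ041 replicate 3 (852) or WT_VEH replicate 2 (7) gave calls, and the other settings gave 0.

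WT cells carried most of the contrast. In WT, 329 genes passed for MJ041 against vehicle, of which 177 rose (1.19%) and 152 fell (1.02%). With library totals as the only scaling 91 rose and 164 fell. In KO, edgeR called 0 genes, and 414 had an unadjusted p below 0.05 (1.26% of genes above 0 and 1.51% below), fewer than the 746 of uniform p-values. In WT these shares were 12.1% and 9.47%. The 3 WT libraries with MJ041 lay all above vehicle in 13.1% of genes and all below it in 9.22%, 22.3% in all. In KO the shares were 5.13% and 4.38%, 9.51% in all. DESeq2 also called 0 genes in KO and voom 0, against 906 and 402 in WT. The 177 genes that rose in WT had a median log2 fold change of -0.04 in KO, and 119 of them had the opposite sign there. The 152 that fell in WT had a median of 0.05 in KO, with 98 of opposite sign. An unadjusted p below 0.05 in KO was reached by 10 and 2 genes of opposite sign and by 1 and 0 of the same sign. All 12 libraries share 1 estimate of the spread in this fit, and the WT calls moved with each library left out. They numbered 0 without WT replicate 1 with vehicle, WT replicate 2 with MJ041, KO replicate 1 or 3 with vehicle, or KO replicate 3 with MJ041. Their number was 31 without WT replicate 3 with vehicle, 49 without WT replicate 1 with MJ041, 108 without KO replicate 2 with vehicle, and 163 and 210 without KO replicates 2 and 1 with MJ041. It was 574 without WT replicate 2 with vehicle and 2059 without WT replicate 3 with MJ041. With a covariate for the markers of other liver cells it was 0. Leaving out WT replicates 1 and 2 with MJ041 leaves 1 library in that group, so only effect sizes are given for that setting.

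Most genes with an unadjusted interaction p below 0.05 had the larger difference in WT, as did 68.3% of all tested genes. These genes were picked by the interaction itself, so their medians describe that choice. Among the 1132 genes with an unadjusted p below 0.05 and an interaction below 0, the median difference was 0.30 in WT, -0.09 in KO and -0.40 for the interaction, and the WT difference was the larger in 993 (87.7%). Among the 848 above 0, the medians were -0.62 in WT, 0.11 in KO and 0.79 for the interaction, and WT had the larger difference in 761 (89.7%). Over all tested genes the SD of the log2 fold changes was 0.41 in WT and 0.23 in KO. The median SD between replicates was 0.114 and 0.136 in log2 CPM for WT with vehicle and MJ041, and 0.109 and 0.120 for KO. A median over genes does not show the spread of the most variable genes. The part of replicate spread in the wider WT differences was not tested. Across all tested genes the WT and KO differences, which share no library, had a Pearson r of -0.09 and a Spearman rho of -0.08. Genes are not independent replicates, so no p is given.

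**Figure D2:**
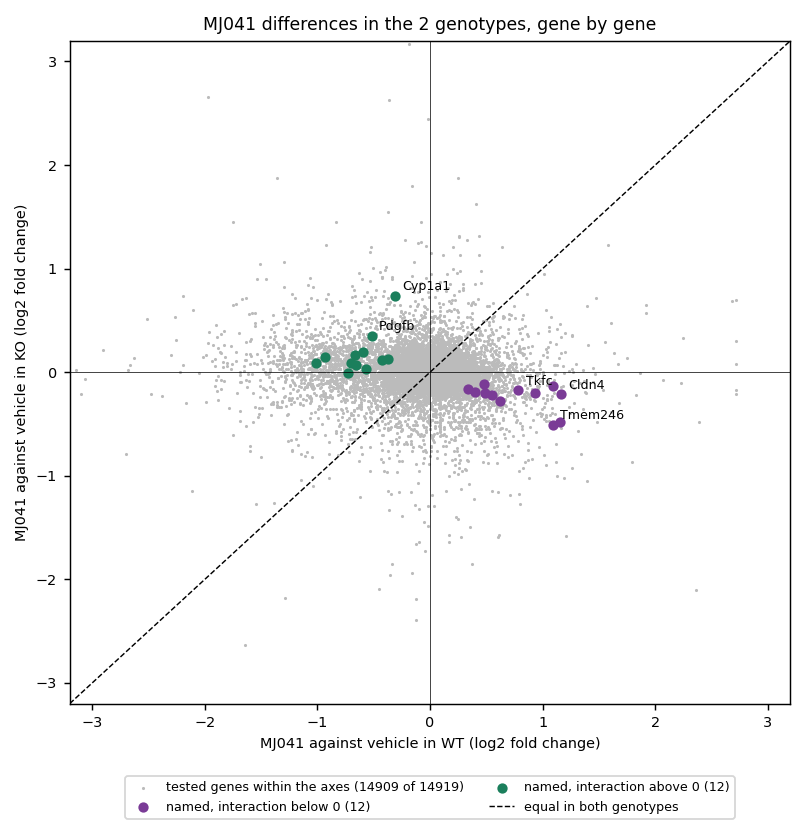
Log2 fold change of MJ041 against vehicle in WT (x axis) and KO (y axis) for each tested gene, with the 12 named genes of each direction in colour and a dashed line where both genotypes would be equal. The cloud is wider along the WT axis (SD 0.41) than along the KO axis (SD 0.23), and Cyp1a1 lies apart from the other named genes because its KO difference is the larger.

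Named genes were chosen without the symbols of predicted genes, such as Gm plus digits and Rik clones. Among the rest, the 24 named genes, 12 in each direction, had the smallest unadjusted p with a mean of 5 CPM in at least 1 group. None passed in edgeR (adjusted p from 0.119 to 0.128), and all 24 were called by DESeq2. In WT 23 of them passed with MJ041, all but Cyp1a1, and in KO none did. The interaction kept its sign for all 24 in each of 23 alternative settings. The genes were picked by their interaction p in the same libraries, so this is no separate support. Of the 12 below 0, all had an opposite sign in WT and KO, and so had 11 of the 12 above 0, Car13 being at -0.01 in KO. Choice by the interaction favours opposite signs. Among all genes with an unadjusted interaction p below 0.05 they were found in 993 of 1132 below 0 and 714 of 848 above 0. With an unadjusted p below 0.05 in both genotypes they were found in 46 and 14.

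**Figure D3:**
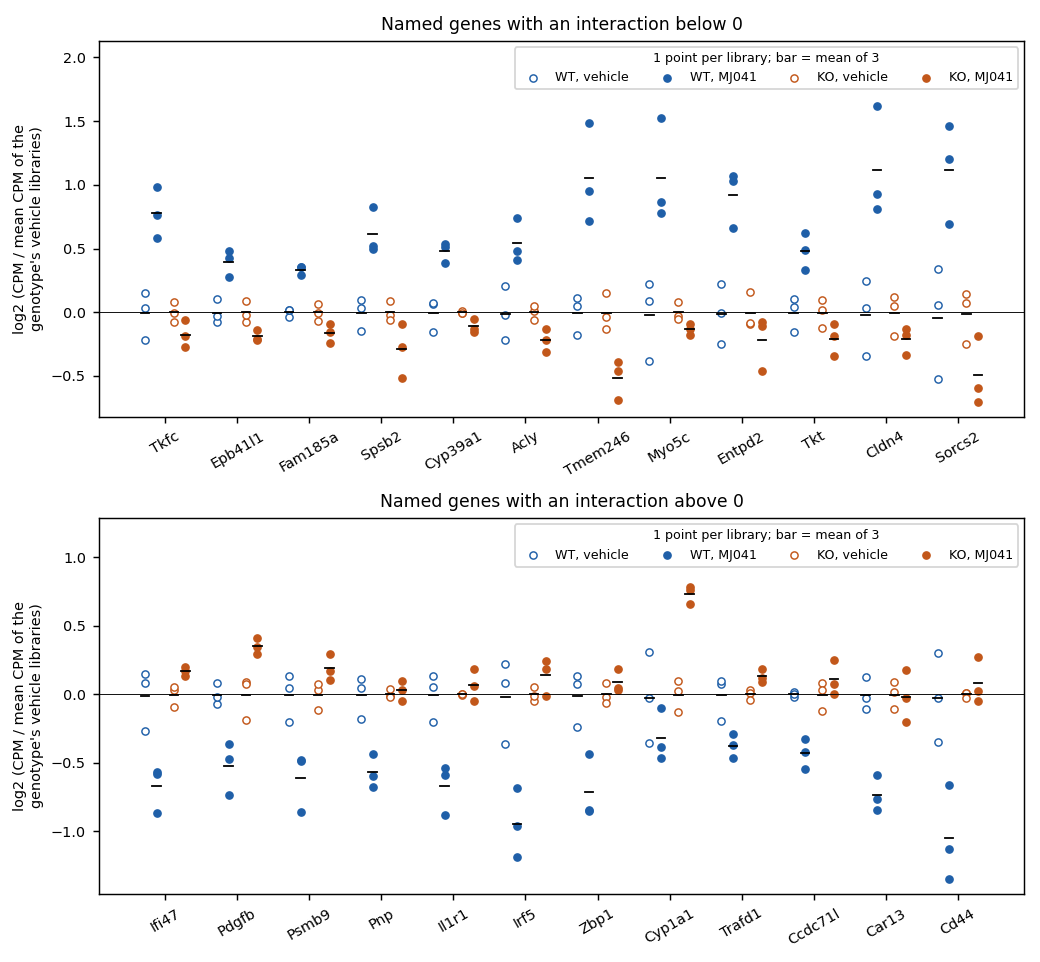
Level of each named gene in each library, as the log2 ratio of its CPM to the mean of the vehicle libraries of its genotype (open circles vehicle, filled circles MJ041, blue WT, orange KO, 1 point per library, bars the mean of 3). Filled blue points lie apart from open blue ones in all genes but Cyp1a1, while filled orange points stay near 0 for most genes and leave it most for Cyp1a1 and Tmem246.

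Sugar metabolism genes mostly had interactions below 0, in 34 of the 40 tested, against 7905 of all 14919 tested genes. Tkfc (ENSMUSG00000034371), the triokinase that phosphorylates the glyceraldehyde made from fructose, was at 180.1, 214 and 232 CPM in WT with vehicle and 354, 412 and 313 CPM with MJ041. Its KO levels were 64.0, 60.7 and 67.8 CPM and 61.5, 52.99 and 56.3 CPM, which overlapped. Its WT difference was 0.78 ± 0.11, its KO difference -0.17 ± 0.11 and the interaction -0.96 ± 0.15 (95% interval -1.29 to -0.63). Khk, the ketohexokinase that starts fructose use and was singled out after its values were seen, went from 86.6, 104 and 92.6 to 133, 128 and 123 CPM in WT. In KO it had 42.7, 48.8 and 47.0 CPM with vehicle and 43.0, 46.5 and 40.4 CPM with MJ041, again overlapping, and its interaction was -0.54 ± 0.11. Both genes thus had WT libraries with MJ041 above vehicle and no such separation in KO. Of the 40 tested genes of glycolysis, fructose, gluconeogenesis and glycogen, 17 had an unadjusted p below 0.05 with an interaction below 0 and 0 above 0, against 7.59% and 5.68% of all genes. Their median was 0.35 in WT, -0.09 in KO and -0.42 for the interaction, where all genes had -0.02. Gapdh, the glycolytic dehydrogenase, had -0.48, Eno1, the enolase, -0.44 and Ldha, the lactate dehydrogenase, -0.24. Other members chosen after their values were seen were the glucose transporter Slc2a2 (-1.12) and the isomerase Gpi1 (-1.004). Tkt, the transketolase of the pentose phosphate pathway, had -0.69 ± 0.13, with 326, 389 and 372 CPM in WT with vehicle and 509, 559 and 455 CPM with MJ041.

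Lipogenic genes had the lowest median of the pathway lists. Of 34 tested lipogenesis genes and ChREBP targets 19 had an unadjusted p below 0.05 with an interaction below 0 and 1 above 0. As shares these were 55.9% and 2.94%, against 7.59% and 5.68% of all genes. The median was 0.39 in WT, -0.11 in KO and -0.52 for the interaction. As a mean over the list, log2 CPM was 6.09, 6.32 and 6.33 in WT with vehicle and 6.63, 6.67 and 6.48 with MJ041. In KO it was 6.09, 6.10 and 6.15 with vehicle and 6.13, 5.94 and 6.002 with MJ041. WT libraries with MJ041 all lay above those with vehicle, and the KO groups overlapped.

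Acly (ENSMUSG00000020917), the ATP citrate lyase that makes cytosolic acetyl-CoA, was at 407, 465 and 545 CPM in WT with vehicle and 629, 789 and 659.8 CPM with MJ041. KO libraries held 431, 452 and 465 CPM with vehicle and 409.9, 362 and 386 CPM with MJ041, all 3 below vehicle, and the interaction was -0.77 ± 0.15. Scd1, the desaturase that makes monounsaturated fatty acids, had 1805, 2583 and 2027 CPM in WT with vehicle and 4406, 4482 and 2655 CPM with MJ041. In KO it had 2094, 2718 and 2458 CPM and 2025, 2047 and 2039 CPM, so the MJ041 libraries lay on opposite sides of vehicle in the 2 genotypes, with an interaction of -1.10 ± 0.25 (-0.57 without WT replicates 1 and 2 with MJ041). Mlxipl, which encodes ChREBP and was singled out after its values were seen, had 99.2, 133 and 127 CPM in WT with vehicle and 175, 219 and 161 CPM with MJ041. Its KO levels were 94.2, 95.5 and 101 CPM and 83.0, 86.6 and 84.3 CPM, and the interaction was -0.82 ± 0.16. Txnip, a redox-linked ChREBP target, had -0.49 ± 0.26 with overlapping libraries in both genotypes. Gpd1, which makes the glycerol 3-phosphate of fat (-0.60), and the malic enzyme Me1 (-0.57, or -0.36 without those 2 libraries) were picked after their values were seen.

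Cholesterol synthesis genes followed with 14 of 28 members at an unadjusted p below 0.05 and below 0, and 0 above. All genes had 7.59% below 0 and 5.68% above. The list median was 0.29 in WT, -0.06 in KO and -0.33 for the interaction. Sqle, the squalene epoxidase, chosen after its values were seen, was at 71.9, 86.0 and 81.1 CPM in WT with vehicle and 126, 115 and 95.2 CPM with MJ041, and in KO at 73.9, 89.8 and 84.5 CPM and 78.6, 66.6 and 80.1 CPM. Its interaction was -0.63 ± 0.16 (-0.40 without WT replicates 1 and 2 with MJ041). With the marker covariate the median interaction was -0.35 for lipogenic, -0.34 for sugar and -0.27 for cholesterol genes. Below 0 at an unadjusted p below 0.05 were 15, 15 and 12 members, beside 768 of all 14919 genes. Above 0 were 1, 0 and 0, beside 789. Without WT replicates 1 and 2 with MJ041, which were low in stellate, Kupffer and endothelial markers, the median interaction was -0.31, -0.29 and -0.22. Hmgcs1, the synthase that makes HMG-CoA, had -0.47 ± 0.13 (-0.22 without those 2 libraries). Its KO libraries with MJ041 were all below vehicle, while its WT libraries overlapped. Values near 0 were found for Scap, the escort of SREBP (-0.05), and Nus1, a subunit of the enzyme that makes dolichol (-0.03), and both turned above 0 with library totals as the only scaling. Genes of fatty acid oxidation, which burn fat in mitochondria and peroxisomes, had a median interaction of -0.18. At an unadjusted p below 0.05, 10 of 46 members (21.7%) were below 0 and 0 above, against 7.59% and 5.68% of all genes. Without WT replicate 3 with MJ041 16 were below 0 at that p, as were 1676 of all 15201 genes. With the marker covariate the median was -0.05 with 3 below 0 and 3 above, beside 768 and 789 of all 14919 genes. Their examples Acsl5 (-0.46), Acadm (-0.27) and Hadha (-0.30) were on the same side, the last 2 at -0.14 and -0.14 without WT replicates 1 and 2 with MJ041.

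**Figure D4:**
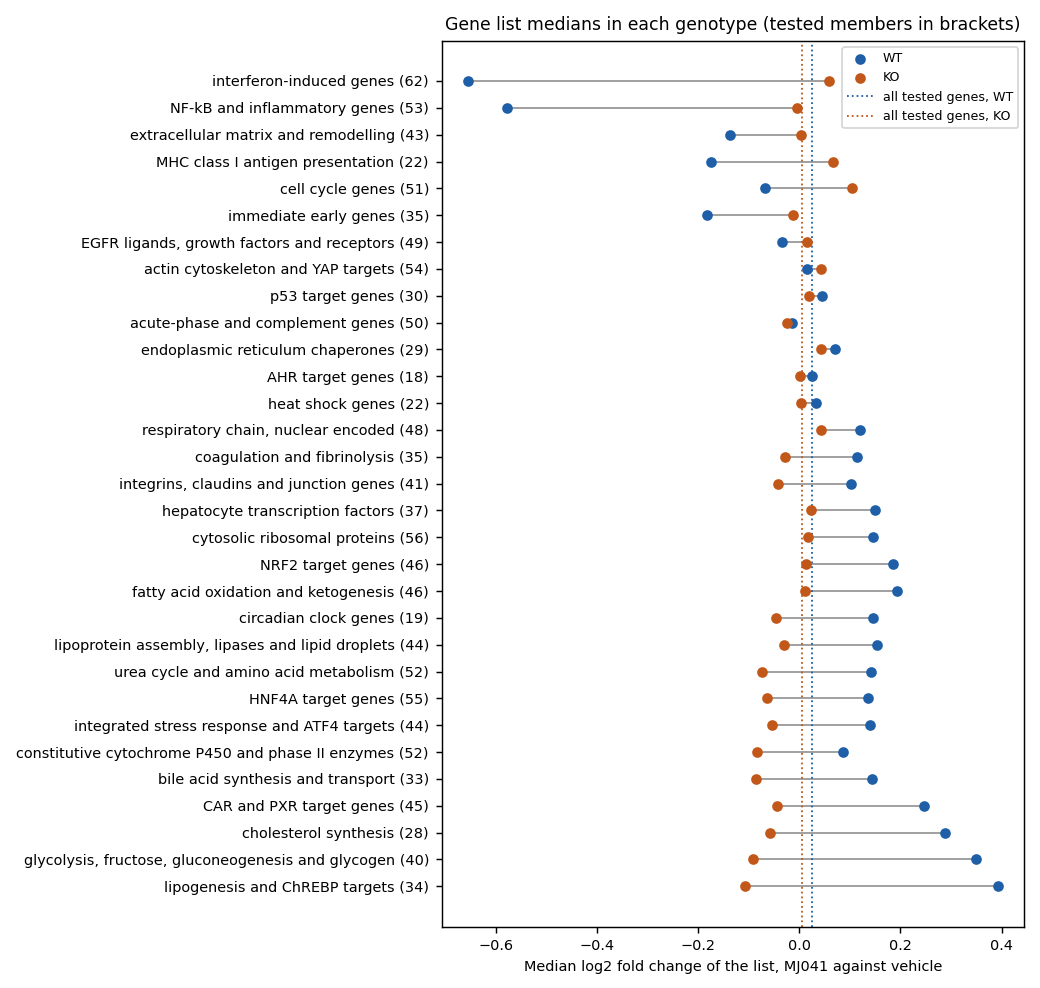
Median log2 fold change of MJ041 against vehicle in each of 31 pathway lists, blue for WT and orange for KO, joined by a line whose length is close to the median interaction (tested members in brackets, dotted lines the medians of all tested genes). Interferon and NF-kB lists lie lowest in WT and near 0 in KO, and the lipogenic and sugar lists lie highest in WT and slightly below 0 in KO.

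HNF4A target genes as a list showed a smaller median contrast, with members from -2.67 to 0.48. Of 55 tested, 8 (14.5%) were below 0 and 2 (3.64%) above at an unadjusted p below 0.05, against 7.59% and 5.68% of all genes. The list median was 0.13 in WT, -0.06 in KO and -0.22 for the interaction. Without WT replicate 3 with MJ041 the count below 0 was 15, beside 1676 of all 15201 genes. It was 13 without KO replicate 1 with MJ041, beside 1154 of all 15211. With the marker covariate the median was -0.11. The mean log2 CPM of the list was 6.08, 6.32 and 6.37 in WT with vehicle, 6.60, 6.34 and 6.36 with MJ041, 4.52, 4.50 and 4.54 in KO with vehicle and 4.51, 4.26 and 4.36 with MJ041. MJ041 and vehicle libraries overlapped in both genotypes, and the genotypes were far apart. Its most abundant members had small interactions, 0.11 for Apoe, -0.21 for Apoa1, the apolipoprotein of HDL (-0.11 with the covariate), and -0.17 for Apob, the apolipoprotein of VLDL, whose sign turned with the marker covariate (0.09) and without WT replicates 1 and 2 with MJ041 (0.05). Mttp, which loads lipid onto Apob and was singled out after its values were seen, differed from these. It had 96.9, 129 and 135 CPM in WT with vehicle and 199, 206 and 157 CPM with MJ041, 90.9, 96.8 and 98.7 CPM in KO with vehicle and 86.3, 80.6 and 84.0 CPM with MJ041. WT libraries with MJ041 lay above vehicle and KO ones below it, with an interaction of -0.83 ± 0.17.

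Among 37 hepatocyte transcription factors 10 (27.0%) were below 0 at an unadjusted p below 0.05 and 2 (5.41%) above 0. All genes had 7.59% and 5.68%, and the median interaction of the factors was -0.13. The count below 0 was 6 without WT replicate 1 with MJ041, beside 959 of all 15235 genes. Without KO replicate 3 with vehicle it was 5, beside 834 of all 15214. Atf5, a stress-linked factor abundant in liver, had -0.36 ± 0.11 (-0.19 with the marker covariate), Onecut2, an HNF6 relative, -0.33 ± 0.15, and Xbp1, a factor of the secretory pathway, 0.08 ± 0.09. Pparg, an adipogenic nuclear receptor picked after its values were seen, had 23.3, 29.6 and 19.1 CPM in WT with vehicle and 45.2, 39.8 and 31.7 CPM with MJ041, and 28.3, 26.4 and 24.6 and 28.7, 30.6 and 28.2 CPM in KO. The interaction was -0.56 ± 0.21, from a WT difference of 0.70 and a KO difference of 0.14, and it was -0.23 with the marker covariate and -0.27 without WT replicates 1 and 2 with MJ041. With the marker covariate 5 factors were below 0 at an unadjusted p below 0.05 and 1 above, beside 768 and 789 of 14919 genes.

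Targets of the drug receptors CAR and PXR had a median interaction of -0.31. At an unadjusted p below 0.05, 14 of 45 members (31.1%) were below 0 and 0 above, against 7.59% and 5.68% of all genes. The count below 0 was 9 without WT replicate 1 with vehicle, beside 793 of all 15202 genes. It was also 9 without WT replicate 1 with MJ041, beside 959 of all 15235. With the marker covariate 6 were below 0 and 2 above, beside 768 and 789 of all 14919 genes, and the median was -0.16. Gstm1, a glutathione transferase with close paralogs that may share its reads, had 241, 310.4 and 258 CPM in WT with vehicle and 508, 496 and 310.1 CPM with MJ041. KO libraries held 1331, 1555 and 1380.5 CPM and 1373, 1527 and 1416 CPM, and the interaction was -0.68 ± 0.22. It was -0.35 with the marker covariate and -0.19 without WT replicates 1 and 2 with MJ041. The export pumps Abcc2 (-0.38) and Abcc3 (-0.44) lay on the same side, at -0.13 and -0.24 with the covariate. Bile acid genes had 6 of 33 below 0 at an unadjusted p below 0.05 and 1 above. As shares these were 18.2% and 3.03%, against 7.59% and 5.68% of all genes. The median of the bile acid genes was -0.25, and -0.09 without those 2 libraries. Scp2, a sterol carrier, had -0.65 (-0.39 with the covariate). Cyp39a1, an oxysterol hydroxylase of that list, was at 13.02, 13.1 and 11.2 CPM in WT with vehicle and 17.7, 18.04 and 16.3 CPM with MJ041. In KO it had 22.8, 23.1 and 22.8 CPM and 22.1, 20.5 and 20.9 CPM, and its interaction was -0.59 ± 0.11.

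ATF4 and its targets, the stress programme that cells use when amino acids are short, had 19 of 44 members below 0 at an unadjusted p below 0.05 and 0 above. The share below 0 was 43.2%, against 7.59% of all genes. Its median was 0.14 in WT, -0.05 in KO and -0.23 for the interaction. The count below 0 was 14 with the marker covariate, beside 768 of all 14919 genes. Without WT replicates 1 and 2 with MJ041 the median interaction was -0.15. Nars, an aminoacyl-tRNA synthetase, had -0.24, and the amino acid transporters Slc3a2 and Slc7a11 had -0.11 and -0.14 (-0.01 and -0.08 with the covariate). Chac1, which degrades glutathione, and Psat1 of serine synthesis were singled out after their values were seen. Chac1 was at 33.0, 43.7 and 47.5 CPM in WT with vehicle and 69.1, 82.4 and 72.0 CPM with MJ041. KO libraries had 30.4, 25.5 and 30.4 CPM and 29.6, 22.3 and 27.1 CPM, so the KO groups overlapped, and the interaction was -0.97 ± 0.19; that of Psat1 was -0.44 ± 0.09. Of 56 cytosolic ribosomal protein genes 55 had a negative interaction, against 7905 of all 14919 tested genes. An unadjusted p below 0.05 was reached by 7 of the 55, which is 12.5% of the 56, against 7.59% of all genes. At that p 0 were above 0, and the list median was -0.13. With library totals as the only scaling 50 of them were negative and Rpsa stood at 0.00050. The count at an unadjusted p below 0.05 was 16 without KO replicate 2 with MJ041, beside 974 of all 15209 genes below 0. It was from 2 to 4 without any WT library other than replicate 3 with MJ041, beside 766 to 1121 of all genes below 0. Without KO replicate 2 or 3 with vehicle or KO replicate 1 or 3 with MJ041 it was 2. In these fits 805 to 1154 of all genes were below 0. Rpl4 had -0.18 (-0.11 with the covariate), Rpsa -0.06 and Rplp1 -0.07.

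The remaining named genes below 0 belonged to other functions. Cldn4, a claudin of tight junctions, was at 60.5, 79.0 and 91.4 CPM in WT with vehicle and 147, 236 and 135 CPM with MJ041. KO libraries had 166, 195 and 206 CPM and 173, 167 and 150.3 CPM, which overlapped, and the interaction was -1.37 ± 0.27. Myo5c, a class V myosin of epithelial secretion, was at 7.05, 10.7 and 9.77 CPM in WT with vehicle and 15.7, 26.4 and 16.7 CPM with MJ041, and higher in KO at 99.9, 92.8 and 90.9 and 86.5, 83.4 and 88.8 CPM. Its interaction was -1.23 ± 0.24. Sorcs2, a sorting receptor, was at 1.48, 2.69 and 2.21 CPM in WT with vehicle and 4.88, 5.85 and 3.43 CPM with MJ041, all 3 above vehicle. In KO it was at 40.9, 53.7 and 50.9 CPM and 42.6, 29.8 and 32.1 CPM, which overlapped, and its interaction of -1.63 ± 0.32 was the largest in size of the 24 named genes. Tmem246, an enzyme of GPI anchors, had -1.60 ± 0.31. It was at 2.90, 3.04 and 2.48 CPM in WT with vehicle, 5.44, 7.88 and 4.61 CPM in WT with MJ041, 2.97, 2.62 and 2.45 CPM in KO with vehicle and 1.94, 1.66 and 2.05 CPM in KO with MJ041. Entpd2, an ectonucleotidase, had -1.14, Spsb2, a ubiquitin ligase adaptor, -0.90, Epb41l1, a membrane skeleton protein, -0.59, and Fam185a -0.50.

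Interferon-induced genes showed the opposite contrast. All 62 tested members had an interaction above 0, between 0.14 and 1.58, against 7014 of all 14919 tested genes. With the marker covariate or without WT replicates 1 and 2 with MJ041 it was above 0 in 61 of 62. An unadjusted p below 0.05 was reached by 52, against 5.68% of all genes. The median was -0.65 in WT, 0.06 in KO and 0.74 for the interaction. Mean log2 CPM over the list was 6.71, 6.28 and 6.91 in WT with vehicle and 5.78, 5.67 and 6.27 with MJ041, and 6.60, 6.59 and 6.49 in KO with vehicle and 6.64, 6.57 and 6.60 with MJ041. WT replicate 3 with MJ041 was the nearest to vehicle and lay just below WT replicate 2 with vehicle, while the 6 KO libraries stood within a narrow range. In this list DESeq2 called 18 members, against 0.598% of all genes above 0, and edgeR 0. Without WT replicate 3 with MJ041 edgeR called 42, beside 489 of all 15201 genes tested there above 0. The marker sums of Kupffer, endothelial and stellate cells were lower in the same 2 WT libraries with MJ041. With the marker covariate the median was 0.47 with 38 members above 0 at an unadjusted p below 0.05, beside 789 of all 14919 genes. Without WT replicates 1 and 2 with MJ041 the median was 0.45.

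Promoters of 3 members are shown because they hold the letters of an interferon-stimulated response element (ISRE), which are GAAA, any 2 bases and GAAA on either strand, in capitals. Sequences are RefSeq promoters of build GRCm38.p6, 250 bases upstream of the gene start, 5′ to 3′ on the gene's strand. Gbp2 lies at chr3:142620413-142620662 on the plus strand, Tgtp1 at chr11:48992247-48992496 on the minus strand and Rsad2 at chr12:26456453-26456702 on the minus strand.
Gbp2: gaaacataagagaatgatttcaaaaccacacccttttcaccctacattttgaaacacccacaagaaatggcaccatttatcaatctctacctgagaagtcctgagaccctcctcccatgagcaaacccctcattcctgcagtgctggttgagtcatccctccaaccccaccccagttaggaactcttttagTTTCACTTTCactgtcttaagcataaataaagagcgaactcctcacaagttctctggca
Tgtp1: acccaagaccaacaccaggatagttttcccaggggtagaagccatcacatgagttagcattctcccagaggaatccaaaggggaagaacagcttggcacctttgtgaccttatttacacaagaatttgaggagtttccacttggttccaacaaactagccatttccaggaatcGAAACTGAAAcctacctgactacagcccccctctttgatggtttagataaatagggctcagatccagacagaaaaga
Rsad2: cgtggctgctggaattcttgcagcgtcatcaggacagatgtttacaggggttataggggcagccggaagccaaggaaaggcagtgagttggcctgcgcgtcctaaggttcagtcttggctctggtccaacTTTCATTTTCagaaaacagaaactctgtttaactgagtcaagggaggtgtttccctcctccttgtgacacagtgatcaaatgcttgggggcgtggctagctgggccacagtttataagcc
The match starts 59 bases before the gene start in Gbp2, 77 in Tgtp1 and 120 in Rsad2. A promoter was found for 10824 of 14917 distinct gene names tested, and 2.68% of these held the letters. Among genes with an unadjusted p below 0.05, 60 of 605 promoters above 0 (9.92%) and 7 of 825 below 0 (0.848%) held them. Outside the interferon list the share above 0 was 41 of 569 (7.21%), and within the list 22 of 43 (51.2%). Of the 9 promoters found for the 12 named genes above 0, 0 held them. The letters of an HNF4 site, CAAAGTCCA on either strand, were in 0.443% of all promoters, in 7 of 605 above 0 (1.16%), in 1 of 825 below 0 (0.121%) and in 2 of 42 of the HNF4A target list (4.76%). A match describes letters and is not a measured binding site.

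Gbp2, a guanylate-binding GTPase of host defence, was at 284, 210.3 and 290.3 CPM in WT with vehicle and 167, 138 and 188 CPM with MJ041. In KO it was at 226, 246 and 208 CPM with vehicle and 241, 238 and 244 CPM with MJ041. All WT libraries with MJ041 lay below vehicle, the KO groups overlapped, and the interaction was 0.76 ± 0.18. Tgtp1, a T-cell-specific GTPase with near-identical copies that may share its reads, had 26.1, 16.1 and 29.3 CPM in WT with vehicle and 14.2, 7.57 and 11.2 CPM with MJ041. Its KO levels were 103, 109 and 93.8 CPM and 102, 129.8 and 126 CPM, with an interaction of 1.34 ± 0.29. Both were singled out after their values were seen, as were Gbp9 (1.34, or 0.87 without WT replicates 1 and 2 with MJ041) and the ADP-ribosyltransferase Parp14 (0.56). Rsad2, the antiviral enzyme viperin, had 2213, 1579 and 3209.7 CPM in WT with vehicle and 1207, 876 and 1658 CPM with MJ041, which overlapped. In KO it had 974, 796 and 753 CPM and 893, 735 and 833 CPM, and its interaction was 0.87 ± 0.34. Irf7, the master factor of type I interferon, had 0.56, and the membrane tether Bst2 0.21. With the marker covariate these were 0.48, 0.32 and 0.12.

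Ifi47 (ENSMUSG00000078920), an interferon-inducible GTPase, had the smallest p of the named genes above 0. It was at 50.1, 39.3 and 52.4 CPM in WT with vehicle and 31.6, 25.9 and 31.9 CPM with MJ041, and in KO at 57.6, 58.6 and 52.9 CPM with vehicle and 62.0, 63.3 and 64.7 CPM with MJ041. WT libraries with MJ041 lay below vehicle and KO ones above it, and the interaction was 0.83 ± 0.15 (95% interval 0.52 to 1.15). Zbp1, a nucleic acid sensor of cell death, had 246, 198 and 257 CPM in WT with vehicle and 129.97, 129.6 and 173 CPM with MJ041. Its KO values were 193, 207 and 187 and 202, 223 and 199.95 CPM, and the interaction was 0.79 ± 0.16 (0.52 without WT replicates 1 and 2 with MJ041). Irf5, a factor of inflammatory gene induction, had 40.0, 26.6 and 36.3 CPM in WT with vehicle, above both KO groups, and 17.6, 15.1 and 21.3 CPM with MJ041, which was near the KO levels of 16.4, 17.6 and 16.8 and 16.8, 19.3 and 20.0 CPM. Its interaction was 1.07 ± 0.21, and that of Trafd1, a brake on innate signalling, was 0.51 ± 0.11.

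Antigen presentation by MHC class I had 9 of 22 members above 0 at an unadjusted p below 0.05 and 1 below. As shares these were 40.9% and 4.55%, against 5.68% and 7.59% of all genes, and the median was 0.22. Above 0 were 5 without KO replicate 3 with vehicle, beside 716 of 15214 genes, and 5 with the marker covariate, beside 789 of 14919. The median was 0.17 without WT replicates 1 and 2 with MJ041. The most abundant, H2-K1 (0.18), B2m (0.25) and H2-D1 (0.20), had small values, and MHC genes have close copies that may share reads. Psmb9, an immunoproteasome subunit that is induced by interferon, was at 43.8, 34.8 and 41.3 CPM in WT with vehicle and 28.5, 22.05 and 28.7 CPM with MJ041. In KO it was at 37.6, 41.6 and 43.0 CPM and 45.8, 50.0 and 43.9 CPM, with all MJ041 libraries above vehicle, and the interaction was 0.79 ± 0.15. H2-Q10, a secreted class I molecule of liver picked after its values were seen, was the member below 0 at that p, with -0.42 ± 0.10 and 754, 869.8 and 779 CPM in WT with vehicle against 1108, 1143 and 1000.4 CPM with MJ041.

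Of 53 NF-kB and inflammatory genes 52 had an interaction above 0, against 7014 of all 14919 tested genes. At an unadjusted p below 0.05, 21 were above 0, against 5.68% of all genes, and 0 in the other direction. The median was -0.58 in WT, -0.00 in KO and 0.54 for the interaction. Mean log2 CPM was 5.21, 4.94 and 5.03 in WT with vehicle and 4.30, 3.81 and 4.52 with MJ041, and 4.48, 4.56 and 4.47 in KO with vehicle and 4.40, 4.53 and 4.44 with MJ041. WT vehicle libraries were the highest, and WT libraries with MJ041 lay at or below the KO level. Without WT replicate 3 with MJ041 the count at an unadjusted p below 0.05 was 32, beside 1459 of all 15201 genes above 0. With the marker covariate the median was 0.38 and the count 22, beside 789 of all 14919 genes above 0. Without WT replicates 1 and 2 with MJ041 the median was 0.32.

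**Figure D5:**
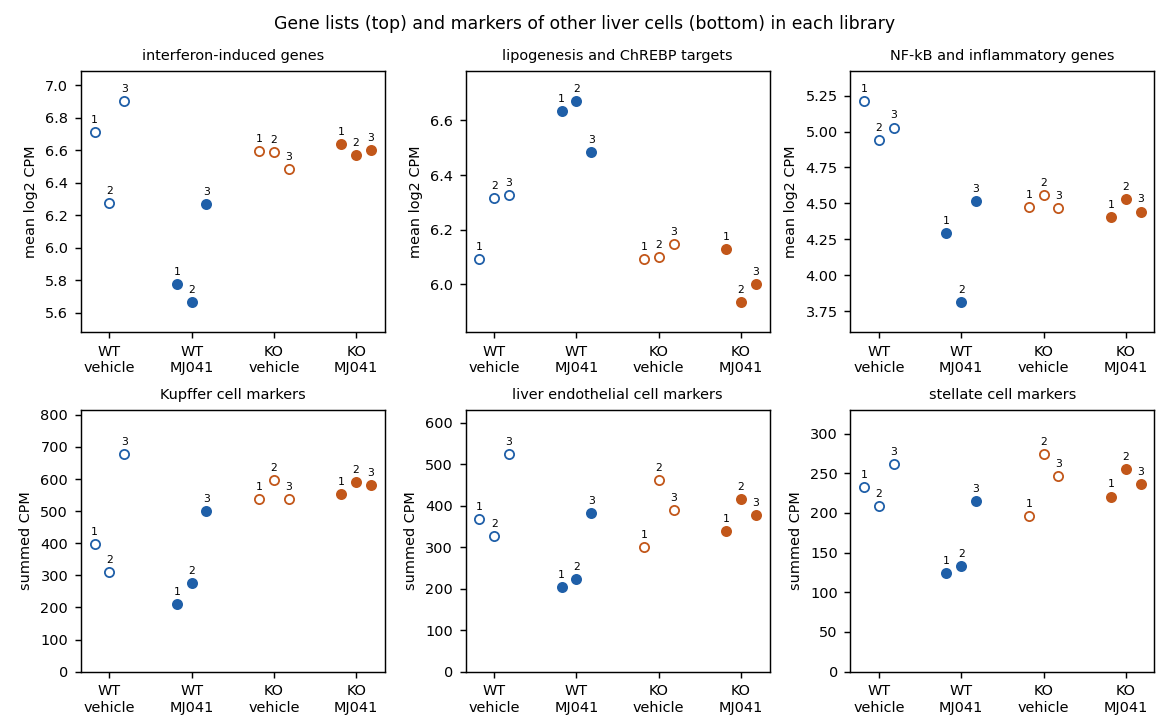
Mean log2 CPM of 3 gene lists (top row) and summed CPM of 3 marker lists of other liver cells (bottom row) in each library, with the replicate number above each point (open circles vehicle, filled circles MJ041, blue WT, orange KO). WT_MJ041 replicates 1 and 2 are the lowest WT libraries in the interferon, NF-kB and all 3 marker panels, and replicate 3 lies nearer to the vehicle libraries.

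Ccl2, the chemokine that attracts monocytes, was at 349, 261 and 206 CPM in WT with vehicle and 173, 64.7 and 123 CPM with MJ041. In KO it had 300.2, 347 and 289.6 CPM and 264, 378 and 311 CPM, and the interaction was 1.20 ± 0.39. Lcn2, an iron-binding acute-phase protein, had 0.64 ± 0.30, and Csf1, the macrophage growth factor, 0.12 ± 0.12, both with overlapping libraries. Chosen after their values were seen, Ccl7 had 34.7, 26.1 and 25.8 CPM in WT with vehicle and 13.5, 5.85 and 12.8 CPM with MJ041, and in KO 10.97, 14.1 and 11.7 and 10.5, 14.2 and 12.2 CPM, with an interaction of 1.43 ± 0.34. Saa3, an acute-phase apolipoprotein, had 1.44 and the scavenger chemokine Cxcl16 0.57. Il1r1, the receptor of interleukin 1, was at 76.5, 72.4 and 60.8 CPM in WT with vehicle and 46.4, 37.9 and 48.3 CPM with MJ041. KO libraries had 35.4, 35.1 and 35.2 CPM and 34.1, 40.0 and 36.8 CPM, and the interaction was 0.73 ± 0.14.

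The cytokine genes Il6 and Csf2, also picked after their values were seen, had large interactions at low levels. Il6 was at 2.33, 1.37 and 2.93 CPM in WT with vehicle and 0, 0.0616 and 0.473 CPM with MJ041, and in KO at 1.43, 0.698 and 0.669 and 0.530, 0.973 and 0.526 CPM. Its interaction was 3.10 ± 0.90 (95% interval 1.16 to 5.05), and 1 WT library with MJ041 was at 0. The value was 5.41 without WT replicate 3 with MJ041 and 1.75 without WT replicates 1 and 2 with MJ041. Csf2, a growth factor of myeloid cells, was at 1.93, 1.37 and 0.939 CPM in WT with vehicle, 0.309, 0.0616 and 0.177 CPM in WT with MJ041, 0.514, 0.930 and 0.669 CPM in KO with vehicle and 0.824, 0.858 and 0.760 CPM in KO with MJ041. Its interaction was 3.11 ± 0.60. The Il6 promoter (chr5:30012864-30013113 on the plus strand, 250 bases upstream, same source and build) is shown because it holds the letters of an NF-kB site, GGGA, any base and TTTCC, in capitals, 44 bases before the gene start.
Il6: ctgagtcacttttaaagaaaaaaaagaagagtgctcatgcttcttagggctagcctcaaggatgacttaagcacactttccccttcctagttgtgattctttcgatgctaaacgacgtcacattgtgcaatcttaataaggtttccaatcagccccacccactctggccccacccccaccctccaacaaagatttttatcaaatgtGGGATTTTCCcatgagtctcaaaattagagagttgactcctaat
These letters were in 0.323% of all promoters searched, in 6 of 37 of the NF-kB list (16.2%), in 6 of 605 above 0 (0.992%) and in 2 of 825 below 0 (0.242%). The E-box letters CACGTG, the core of many ChREBP sites, were in 8.35% of all promoters and in 6 of 28 of the lipogenic list (21.4%). They were in 82 of 825 below 0 (9.94%), near the share of all, and in 33 of 605 above 0 (5.45%). Khk holds them, in capitals, 71 bases before its start (chr5:30921309-30921558 on the plus strand, same source and build).
Khk: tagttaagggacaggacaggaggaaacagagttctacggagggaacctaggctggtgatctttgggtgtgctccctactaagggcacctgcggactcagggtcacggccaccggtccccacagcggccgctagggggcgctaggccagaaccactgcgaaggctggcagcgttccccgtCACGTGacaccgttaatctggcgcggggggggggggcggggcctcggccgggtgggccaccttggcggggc
Both motifs were searched on each strand, and the motif sets of this search can overlap.

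The other named genes above 0 were of signalling, adhesion and metabolism. Cd44, the hyaluronan receptor, was at 103, 65.9 and 82.2 CPM in WT with vehicle and 38.3, 32.9 and 52.9 CPM with MJ041. KO libraries had 76.3, 76.1 and 74.3 CPM and 73.1, 91.3 and 77.0 CPM, and the interaction was 1.11 ± 0.24. Pdgfb, a growth factor for mesenchymal cells, was at 12.3, 11.04 and 11.4 CPM in WT with vehicle, 8.34, 6.96 and 8.99 CPM in WT with MJ041, 10.7, 10.6 and 8.81 CPM in KO with vehicle and 12.3, 13.3 and 12.7 CPM in KO with MJ041. Its libraries with MJ041 lay below vehicle in WT and above it in KO, with an interaction of 0.87 ± 0.17. Pnp, a purine salvage enzyme, had 0.60 ± 0.12, the carbonic anhydrase Car13 0.72 ± 0.15 and Ccdc71l 0.54 ± 0.12. The list of growth factors and EGFR ligands held 10 of 49 members above 0 at an unadjusted p below 0.05 and 3 below. As shares these were 20.4% and 6.12%, against 5.68% and 7.59% of all genes. The list median was 0.04, and 0.0039 without WT replicates 1 and 2 with MJ041. Errfi1, a feedback inhibitor of EGFR, had 0.36, Ccn1, a YAP target, 0.07, and Igfbp2, an IGF-binding protein, -0.51 (-0.32 with the marker covariate).

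KO cells had the larger difference in 139 of the 1132 genes below 0 and 87 of the 848 above 0. Cyp1a1 (ENSMUSG00000032315), the cytochrome P450 that the dioxin receptor AHR induces, was at 4.15, 5.19 and 6.57 CPM in WT with vehicle and 4.94, 4.06 and 3.84 CPM with MJ041, which overlapped. In KO it was at 11.1, 13.02 and 12.4 CPM with vehicle and 19.3, 20.9 and 20.7 CPM with MJ041, all 3 above vehicle. The KO difference was 0.74 ± 0.14 and did not pass, and the interaction was 1.05 ± 0.22 (95% interval 0.58 to 1.51). Of 18 AHR targets tested, 3 (16.7%) were above 0 and 4 (22.2%) below at an unadjusted p below 0.05. All genes had 5.68% and 7.59%, and the median of the list was -0.07. That median was 0.04 with the marker covariate, 0.05 without WT replicates 1 and 2 with MJ041, 0.01 without WT replicate 1 with vehicle and 0.00 without KO replicate 3 with MJ041. Htatip2 had -0.76 ± 0.16 (-0.49 with the covariate), Nfe2l2, which encodes NRF2, 0.13 ± 0.08, and Xdh -0.01 ± 0.09, the last turning sign under several settings.

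Under the same rule on symbols, genes with a mean of 5 CPM in a group and a larger difference in KO than in WT were ranked. The 8 with the smallest interaction p were Cyp1a1, Nt5e, Dgat1, H2-Q1, Gys2, Tc2n, Mthfd2 and Ss18l1. Gys2, the liver glycogen synthase, was at 12.4, 14.7 and 18.4 CPM in WT with vehicle and 17.8, 18.04 and 18.1 CPM with MJ041. KO libraries had 15.1, 17.2 and 21.7 CPM and 12.4, 8.75 and 11.5 CPM, all 3 below vehicle, so that the interaction of -0.97 ± 0.24 came from a KO difference of -0.73 and a WT difference of 0.24. Nt5e, the ectonucleotidase CD73, had 95.97, 86.4 and 93.3 CPM in KO with vehicle and 78.0, 75.7 and 78.4 CPM with MJ041. Its WT levels were 206, 208 and 204 and 231, 239 and 213 CPM, and the interaction was -0.39 ± 0.08. Dgat1, which makes triglyceride, had -0.38, from 0.17 in WT and -0.21 in KO. WT libraries of Nt5e and Dgat1 with MJ041 lay above vehicle and KO ones below it. These 8 were chosen by their values in the same contrast and carry no separate test.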

How the data were processed

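Raw counts per gene for all 12 libraries were deposited by the authors as 1 table. Per the labels' protocols, stranded libraries from total RNA were sequenced on an Element AVITI, and per the submitters' processing notes reads were handled with STAR 2.7.10b on mm39, featureCounts, Trimmomatic 0.34, FastQC and DESeq2. Strand and multimapping settings are not given in the sources used here, so near-identical copies and overlapping genes are uncertain. The labels name groups and replicate numbers, with no dose or time.

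The counts were used as deposited in R 4.3.3 with edgeR 4.0.16. Genes were kept by filterByExpr (minimum count 10), scaled by TMM and fitted with 1 coefficient per group by the quasi-likelihood test, with Benjamini-Hochberg adjustment and a threshold of 0.05 over all 14919 tested genes. The SE is the absolute log2 fold change over the square root of F. DESeq2 1.42.0 and limma 3.58.1 (voom), other scalings and filters, a replicate block, a covariate for markers of other liver cells and left-out libraries were alternatives. The robust and legacy quasi-likelihood fits were added after seeing the data, and the legacy fit gave the same counts as the main fit. The main edgeR fit of the interaction was tested on simulated counts with genes drawn independently, and the other fits were not tested in this way.

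The rule for named genes took Hnf4a and the 12 genes with the largest interaction in each direction among those that passed with a mean of at least 5 CPM in a group. None passed, so the places were filled by the smallest unadjusted p. Symbols of predicted genes (Gm plus digits, Rik clones, LOC entries or identifiers) were not eligible. A few genes are not reported here, and the next by the rule took their places. For each list it took the 3 most abundant members, and it took the genes nearest the filter. The members and lists were chosen with earlier results of these data known, and further genes were singled out after their values were seen, as stated beside them. A symbol was paired with 52081 of 55414 gene IDs, 14885 of them tested. No source used here names molecular identifiers, and intervals cover the spread between libraries only. Promoters came from RefSeq tables of GRCm38.p6, not the build of the counts.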

Additional observations from a re-analysis of the deposited data

How the results depend on the processing

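The count of genes with an adjusted interaction p below 0.05, 0 in edgeR, was 227 with DESeq2, 886 without a filter on low counts and between 0 and 852 with 1 library left out. For WT the count of 329 was 906 with DESeq2, 1667 without the filter and 649 with the replicate block. It was 158 at a fold of at least 1.5 and 0 with the covariate for other liver cells. It ranged from 0 to 2059 with 1 library left out. For KO the count of 0 was 15 without the filter. The replicate block gave 0 interaction calls, with 2258 genes at an unadjusted p below 0.05 against 1980. Whether replicate numbers pair the libraries is not given in the labels and was not settled here. Of 18 same-number pairs, 7 had a correlation of deviations over 0.1 (range -0.10 to 0.50). Within a genotype 4 of the 6 had one (-0.01 to 0.50), while pairs of unlike number ranged from -0.53 to 0.45. Of 106 genes followed through 23 alternatives, 28 shrank by over 1.5 times with the covariate. Without WT replicates 1 and 2 with MJ041, which leaves 1 library in that group, 37 did. Those that turned sign had reported values near 0, other than Apob (-0.17) and Cd5l (0.68). With the covariate the interaction was 0.086 for Apob, 0.047 for Xdh, 0.061 for Scap and -0.68 for Cd5l. Cd5l is a Kupffer cell marker and itself part of that covariate. After dropping those 2 libraries the interaction was 0.052, 0.050, 0.10 and -0.44. With library totals as the only scaling it was 0.031 for Nus1, 0.011 for Scap, 0.047 for Xdh and 0.00050 for Rpsa. With 1 library left out it ranged from -0.035 to 0.020 for Nus1, -0.12 to 0.0063 for Scap, -0.048 to 0.054 for Xdh, -0.14 to 0.0055 for Rplp1, -0.21 to 0.012 for Cd68, a macrophage marker, and -0.14 to 1.96 for Cd5l. The causes were not tested. Depth was even between libraries.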

Other observations

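Other gene groups had smaller or mixed interactions. Extracellular matrix and remodelling genes had 10 of 43 members (23.3%) above 0 at an unadjusted p below 0.05 and 3 (6.98%) below. All genes had 5.68% and 7.59%. The list median was -0.14 in WT, 0.00 in KO and 0.25 for the interaction. Stellate marker sums were lower in WT replicates 1 and 2 with MJ041. The median was 0.01 with the marker covariate and 0.06 without those 2 libraries. With the covariate 5 members were above 0 at that p and 2 below, beside 789 and 768 of all 14919 genes. Without WT replicate 3 with MJ041 19 were above 0, beside 1459 of all 15201 genes. Cell cycle genes had a positive interaction in 40 of 51 members, against 7014 of all 14919 tested genes, with a median of 0.18. At an unadjusted p below 0.05, 3 of the 51 were above 0, against 5.68% of all genes, and 1 below. The median was 0.06 with the marker covariate. Without KO replicate 1 with MJ041 19 were above 0 at that p, beside 1126 of all 15211 genes. Immediate early genes, which respond first to stimulation, had 6 of 35 (17.1%) above 0 at that p and 2 (5.71%) below. All genes had 5.68% and 7.59%, and the list median was 0.17. Above 0 were 1 with the covariate, beside 789 of all 14919 genes, and 12 without WT replicate 3 with MJ041, beside 1459 of 15201. Urea cycle and amino acid genes had 10 of 52 (19.2%) below 0 at that p, against 7.59% of all genes, and 0 above. Their median was -0.22. Below 0 were 5 with the covariate (median -0.18) and 6 with library totals as the only scaling, beside 768 and 775 of 14919 genes. Without WT replicate 3 with MJ041 16 were below 0, beside 1676 of all 15201 genes. Nuclear genes of the respiratory chain had a negative interaction in 45 of 48 members, against 7905 of all 14919 tested genes. At an unadjusted p below 0.05, 2 of the 48 were below 0, against 7.59% of all genes. The median was -0.08 (0.00 with the marker covariate). Chaperones of the endoplasmic reticulum had 2 of 29 below 0 at that p, against 7.59% of all genes, and 0 above. Their median of -0.05 was 0.01 with library totals as the only scaling and 0.09 with the covariate.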
